A study of Mus musculus with 11 samples.

Results

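The genes described here sense stress at the translation initiation factor eIF2, carry a mitochondrial signal to it, or undo that signal. They are the 4 eIF2alpha kinases (Eif2ak1, Eif2ak2, Eif2ak3 and Eif2ak4), the mitochondrial relay made of Oma1 and Dele1, the 2 phosphatase subunits Ppp1r15a and Ppp1r15b, the substrate Eif2s1 and the exchange factor subunit Eif2b5. The 10 genes were chosen by name from the 37583 genes of the counts, and Dele1 also has the older symbol 0610009O20Rik. All 10 passed the filter on low counts that left 11900 genes for testing. The samples are RNA from 11 clones of granulocyte-monocyte progenitors (GMPs), mouse cells that give rise to neutrophils and monocytes. Every clone descends from C57BL/6 fetal liver taken on embryonic day 15.5 and carries ER-Hoxb8, which holds progenitors immature while estrogen is present. The medium of both groups held beta-estradiol at 0.5 uM and conditioned medium worth roughly 50 ng/ml of the growth factor SCF. Of the clones, 6 are wild-type (WT) and 5 are knockouts (KO) for tafazzin, the enzyme encoded by Taz that remodels cardiolipin in the inner mitochondrial membrane. The titles name the WT clones 1A to 1C and 2D to 2F, and the KO clones 3H, 3I and 4J to 4L. What the leading number stands for is not stated in the labels, so clones of 1 number may share a parent culture. The main test sets the difference between genotypes against the spread between these clones, treated as independent. Its p-values may be too small if clones of 1 number share a parent.

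In the integrated stress response, a kinase phosphorylates the alpha subunit of eIF2, which then blocks its own exchange factor eIF2B. Most translation slows, while a few mRNAs with upstream reading frames, Atf4 among them, are translated more. Each kinase answers a different stress. HRI (Eif2ak1) is held off by heme and is also the kinase reached by the mitochondrial signal, PKR (Eif2ak2) binds double-stranded RNA, PERK (Eif2ak3) sits in the endoplasmic reticulum membrane, and GCN2 (Eif2ak4) answers stalled ribosomes and uncharged tRNA. When mitochondria are disturbed, the protease OMA1 cleaves DELE1, whose released fragment activates HRI. The response is switched off by protein phosphatase 1, which is brought to eIF2alpha by GADD34 (Ppp1r15a, itself induced by the response) or by CReP (Ppp1r15b, present in unstressed cells). These are steps of protein activity, whereas the data are levels of mRNA, and phosphorylation, cleavage and translation were not measured.

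The residue all 4 kinases act on is serine 51 of eIF2alpha, counted without the starting methionine. It is shown here because it is the point on which the 10 genes converge. The coding sequence around it, from the reference mouse transcript of Eif2s1, is given with the serine codon in capitals and 8 codons to each side.
Eif2s1, serine 51: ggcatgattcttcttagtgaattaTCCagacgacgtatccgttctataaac

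Gene counts totalled 21966954 to 27431544 in WT and 19778119 to 23658158 in KO clones. Levels are given as CPM, counts scaled to the size of the library with TMM factors, and fold changes are KO over WT on the log2 scale from edgeR, with a gene called at a Benjamini-Hochberg adjusted p under 0.05. Taz checked the labels: it lay at 37.0 to 43.8 CPM in the WT clones and at 3.5, 3.3, 3.1, 4.1 and 2.2 CPM in KO 3H, 3I, 4J, 4K and 4L. The labels do not state which part of Taz was deleted, and the remaining counts were not assigned to a part of the gene. The 9 progenitor markers summed to 13694 to 22702 CPM in WT and 12755 to 20244 CPM in KO clones, led by myeloperoxidase (Mpo). Mpo alone had a mean of 9989 CPM in WT and 9387 CPM in KO clones, so single markers can differ more than the sum does. Of the 9, edgeR called 0 in either direction. WT 2D stood apart in late neutrophil markers, which summed to 1534 CPM there, at most 115 CPM in the other WT clones and 15.95 to 145 CPM in KO clones. S100a9 was the most abundant by the WT mean, at 86.9 CPM, but not by the KO mean, where it was at 5.88 CPM. The monocyte and macrophage markers, led by Ccr2, summed to 403 to 1135 CPM in WT and 745 to 1817 CPM in KO clones, and the mast cell, basophil and megakaryocyte markers, led by Cpa3, to 1173 to 4289 CPM and 2292 to 5208 CPM.

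Of the 10 genes, 0 were called higher in KO clones and 1, Eif2ak1, was called lower. Of all 11900 genes tested, 328 (2.76%) were called higher and 273 (2.29%) lower, 5.05% in either direction. Without the adjustment, edgeR gave p under 0.05 for 1 of the 10 higher and 1 lower, and DESeq2 and limma-voom for 1 higher and 2 lower, while each of these tools called 0 higher and 1 lower. The median log2 fold change was -0.05 over the 10 genes and -0.01 over all tested genes, and 2 of the 10, both phosphatase subunits, had a positive value. Eif2ak1 was also the 1 gene of the 10 whose WT and KO clones did not overlap, against 5.99% of all tested genes.

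**Figure D1:**
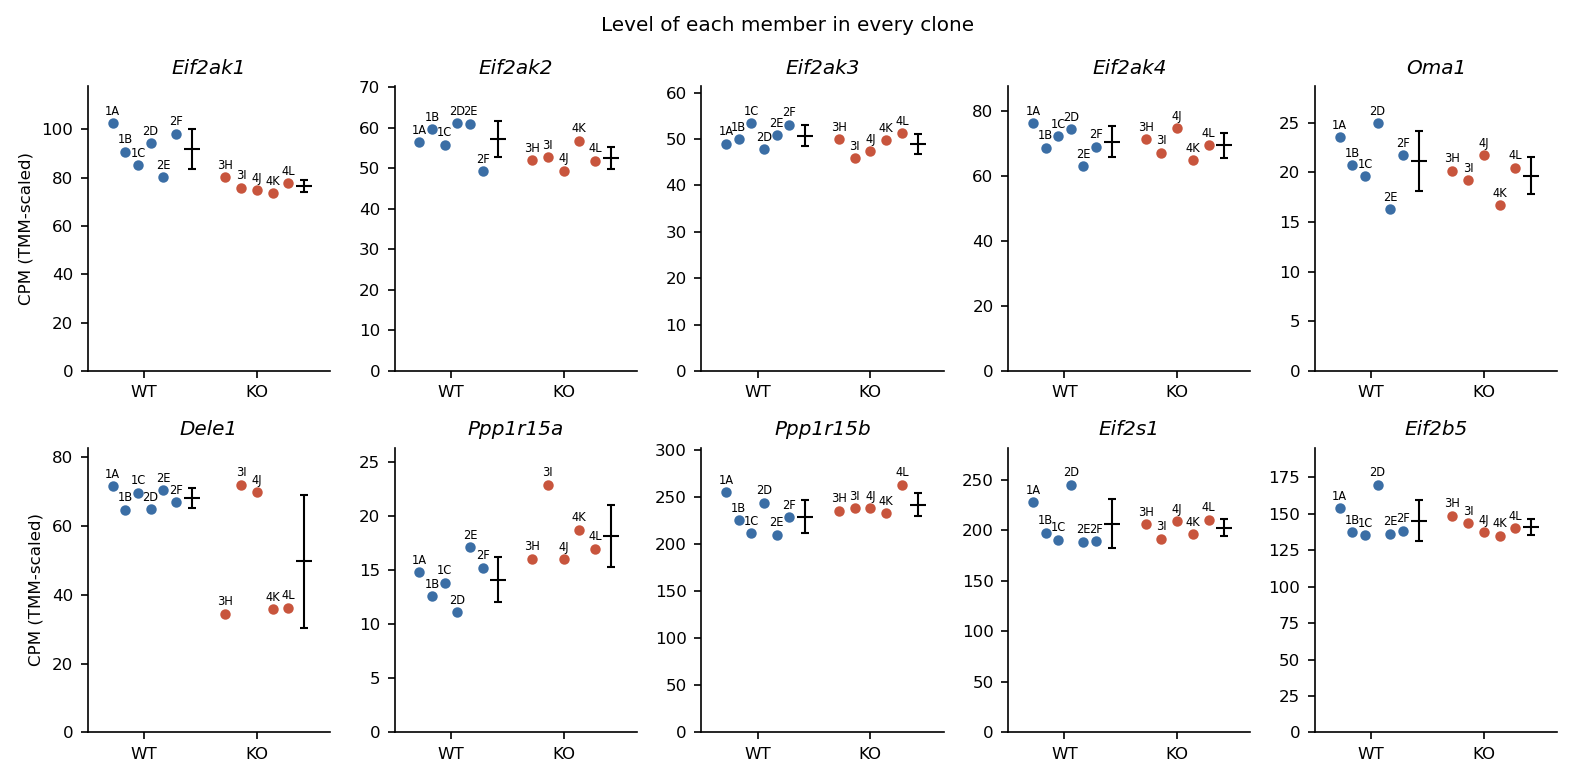
Level of each of the 10 genes in every clone, in TMM-scaled CPM on axes that start at 0, for WT (blue) and KO (red) clones, with the mean and SD of each genotype as a black bar. Dele1 in KO clones lies at 2 levels, 34.5 to 36.3 CPM in 3H, 4K and 4L and 69.9 and 72.0 CPM in 4J and 3I, while of the other genes Ppp1r15a varies most among KO clones, from 15.98 to 22.9 CPM.

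Eif2ak1 encodes HRI, the kinase that the OMA1-DELE1 relay activates. Its level ran from 80.2 to 102.6 CPM in WT clones, with a median of 92.6 CPM, and was 80.1 CPM in KO 3H, 76.0 CPM in 3I, 75.0 CPM in 4J, 73.5 CPM in 4K and 77.7 CPM in 4L. Every KO clone was below every WT clone, but the highest KO clone, 3H, and the lowest WT clone, 2E, were almost level. The mean fell from 91.9 ± 8.28 CPM (SD, n = 6) to 76.4 ± 2.56 CPM (SD, n = 5), and the log2 fold change was -0.27 ± 0.06 (SE, edgeR adjusted p = 0.0335), a level 83.2% of WT. The 95% interval ran from -0.40 to -0.13 on the log2 scale. The call was lost when 1 of 8 clones was omitted (any KO clone, or WT 1A, 1B or 2F), with edgeR adjusted p between 0.0129 and 0.0854 over the 11 fits that each left out 1 clone. It was also lost without the clones of any 1 title number (edgeR adjusted p 0.0615 to 0.413) and when title-number means were compared (edgeR adjusted p = 0.0796), with a log2 fold change between -0.30 and -0.23 throughout.

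Counting ignored strand, and the exons of Eif2ak1 share 487 bases with Aimp2 on the opposite strand, so reads from those bases cannot be assigned by strand. Aimp2, which encodes a scaffold of the tRNA synthetase complex, was at 28.7 to 37.7 CPM in WT and 26.8 to 32.5 CPM in KO clones, and its log2 fold change came to -0.10 ± 0.08 (SE) at an edgeR adjusted p of 0.553. Markers of other cell types were summed in the same clones. The 8 B-lymphoid markers summed to 34.3 to 87.2 CPM in WT and 6.38 to 30.5 CPM in KO clones, without overlap, with 1 of 6 tested markers (Cd79b) called lower, Ebf1 the most abundant and Pax5 at 0 in every clone. The 8 erythroid markers, of the lineage in which HRI is best known, summed to 4.67 to 39.8 CPM in WT and 3.53 to 12.7 CPM in KO clones, and at most to 12.1 CPM in the WT clones other than 1A, with 0 of 4 tested markers called by edgeR, Klf1 the most abundant and the globin gene Hba-a2 at 0 in every clone. In bulk RNA, fewer cells of a type and less RNA per cell cannot be told apart. The part of these markers in the Eif2ak1 difference was not tested. The gene nearest to Eif2ak1 in pattern over the 11 clones was Ik (Pearson r = 0.95), followed by Cd79b (r = 0.95), a B-cell receptor component at 1.3 to 18.3 CPM in WT and 0.33 to 0.85 CPM in KO clones. The clones share genotype and library, so these coefficients describe the samples and carry no test.

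The bases before the start of Eif2ak1 are shown because it was the 1 gene called. RefSeq promoter windows of 300 bases, 250 before to 50 after the start in build GRCm38.p6, were matched for 8 of the 10 genes. No window was matched for Dele1 or Ppp1r15b, so these were not searched. Both strands were searched for TGATGCAA (the composite element bound by ATF4 with a C/EBP partner) and TGACGTCA (the cyclic AMP response element). The search also covered GAAANNGAAA (the interferon-stimulated response element) and CCAAT (the CCAAT box). TGATGCAA was in the windows of none of these 8 genes and in 0.895% of 32851 mouse promoters. Eif2ak1 held 1 CCAAT, beginning 88 bases before the start and in capitals below, a motif found in 37.4% of promoters. The windows of Eif2ak3 (6 matches) and Eif2b5 (1 match), neither of them called, held it too. The 250 bases are chr5:143817542-143817791 on the plus strand.
Eif2ak1 promoter: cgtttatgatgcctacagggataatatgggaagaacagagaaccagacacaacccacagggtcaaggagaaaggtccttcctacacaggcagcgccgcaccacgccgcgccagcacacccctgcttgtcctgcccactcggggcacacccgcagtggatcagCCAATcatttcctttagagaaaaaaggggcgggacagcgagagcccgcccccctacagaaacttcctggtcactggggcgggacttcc

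None of the other 3 kinase genes was called. Eif2ak2 (PKR) lay at 49.4 to 61.1 CPM in WT clones, with a median of 58.1 CPM, and at 52.0, 52.8, 49.4, 56.8 and 51.9 CPM in KO 3H, 3I, 4J, 4K and 4L. The clones overlapped, since WT 2F was as low as KO 4J, and the log2 fold change was -0.12 ± 0.06 (SE, edgeR adjusted p = 0.285, 95% interval -0.25 to 0.01). Eif2ak3 (PERK) lay at 47.8 to 53.4 CPM in WT clones, with a median of 50.4 CPM, and at 50.0, 45.9, 47.4, 49.8 and 51.3 CPM in the same order of KO clones. It had the narrowest interval of the 10 genes, -0.15 to 0.04 around -0.05 on the log2 scale (edgeR adjusted p = 0.546), so that a change of PERK mRNA beyond 9.80% down or 3.08% up lay outside the interval. Eif2ak4 (GCN2) lay at 63.0 to 76.2 CPM in WT clones, with a median of 70.6 CPM, and at 71.2, 67.1, 74.6, 64.7 and 69.5 CPM in KO clones. Its log2 fold change was -0.02 ± 0.05 (SE, edgeR adjusted p = 0.860), with a 95% interval from -0.14 to 0.10.

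PKR is induced by interferon in many cells, and its window holds a match to GAAANNGAAA, found in 3.44% of promoters and also in the windows of Ppp1r15a and Eif2s1, 3 of the 8 genes. In Eif2ak2 the match begins at base 19 after the start and is in capitals within the 30 bases chr17:78882535-78882564, minus strand.
Eif2ak2, around the match: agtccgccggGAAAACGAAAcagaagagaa
Among 22 interferon-induced genes, 16 passed the filter and edgeR called 0 in either direction (1 higher at an unadjusted p under 0.05; DESeq2 called 1 and limma-voom 0), and the median of the list was 0.15 on the log2 scale. The most abundant by CPM, Dtx3l, was at 64.9 ± 19.6 CPM in WT and 75.3 ± 16.2 CPM in KO clones (SD, n = 6 and 5).

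Levels of different genes were compared per kilobase of exon. In WT clones Eif2ak1 stood at 16.2 ± 1.46 CPM per kilobase, Eif2ak2 at 11.2 ± 0.877, Eif2ak4 at 9.46 ± 0.632 and Eif2ak3 at 8.41 ± 0.373 (SD, n = 6). The step from Eif2ak1 to Eif2ak2 and that from Eif2ak2 to Eif2ak4 were larger than these SDs. Eif2ak4 and Eif2ak3 differed by little more than their SDs together. Over the principal transcript alone, Eif2ak1 remained the highest at 21.3 CPM per kilobase, while Eif2ak4 (13.5) and Eif2ak2 (13.3) were level and Eif2ak3 stood at 11.2. Over all exons, Eif2ak1 made up 35.8 ± 2.23% of the 4 kinases' summed level per kilobase in WT and 32.7 ± 0.750% in KO clones (SD, n = 6 and 5). These shares overlapped, from 32.9 to 38.5% in WT and from 31.6 to 33.5% in KO clones. The sum itself was 45.3 ± 1.57 CPM per kilobase in WT, from 43.0 to 47.5, and 41.2 ± 0.728 in KO, from 40.3 to 42.2. It includes Eif2ak1, whose mean was 16.2 CPM per kilobase in WT and 13.5 in KO clones.

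Dele1, whose protein carries the mitochondrial signal to HRI, differed among the KO clones more than between genotypes. In WT clones it lay at 64.8 to 71.7 CPM, with a median of 68.3 CPM. In KO clones it was at 34.5 CPM in 3H, 72.0 CPM in 3I, 69.9 CPM in 4J, 35.8 CPM in 4K and 36.3 CPM in 4L. Clones 3H, 4K and 4L were thus at 50.7%, 52.5% and 53.3% of the WT mean, and 3I and 4J at 105.8% and 102.7%. Both title numbers of the KO clones included each level.

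The coefficient of variation of Dele1 was 4.34% in WT and 39.1% in KO clones. The ratio of KO to WT SD on the log2 scale, 8.73, was the 13th highest of 11900 genes. The WT SD in that ratio was small, 0.0626, and the KO SD, 0.547, was at the 87th percentile of the tested genes. Counting error was small beside the gap: 680 counts in 3H gave a 95% Poisson interval of 32.0 to 37.2 CPM, and 1697 counts in 3I one of 68.7 to 75.6 CPM. The intervals cover counting error only. Between genotypes the log2 fold change was -0.45 ± 0.21 (SE, edgeR adjusted p = 0.255), with a 95% interval from -0.91 to 0.01, and a mean of 49.7 ± 19.4 CPM (SD, n = 5) in KO clones describes none of them. The fit with the title number as a random block called Dele1 lower (limma adjusted p = 0.0262), and no other of the 24 alternatives did. That fit had a within-number correlation of -0.21 and called 1043 of all 11900 genes higher and 940 lower. The main edgeR fit called 328 and 273.

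The drop was compared with the genes around Dele1. The 5 nearest tested genes to each side with a symbol and a mean of at least 5 CPM were taken. Each clone's level of these genes was set against the WT mean on the log2 scale. The median of these 10 neighbours was -0.08 in 3H, 0.07 in 3I, 0.01 in 4J, 0.06 in 4K and -0.07 in 4L, where Dele1 itself was at -0.98, 0.08, 0.04, -0.93 and -0.90. The median over all 233 such genes of the chromosome was 0.01 to 0.03 in the KO clones. Of the neighbours, 9 lay between -0.46 and 0.68 in every KO clone. The exception was Arap3, the nearest of these neighbours on its side of Dele1, which encodes a regulator of small GTPases. It was at 62.6 to 122 CPM in WT clones and at 16.1, 50.9, 91.8, 46.3 and 45.4 CPM in KO 3H, 3I, 4J, 4K and 4L. Arap3 was thus below every WT clone in 3H, 4K and 4L, the clones low in Dele1, and also in 3I, where Dele1 was not low. The 3 clones low in Dele1 had the lowest Arap3 levels. A lincRNA annotated opposite Dele1 shares 145 exon bases with it and has no row of its own in the counts. Its reads from those shared bases would count toward Dele1.

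**Figure D2:**
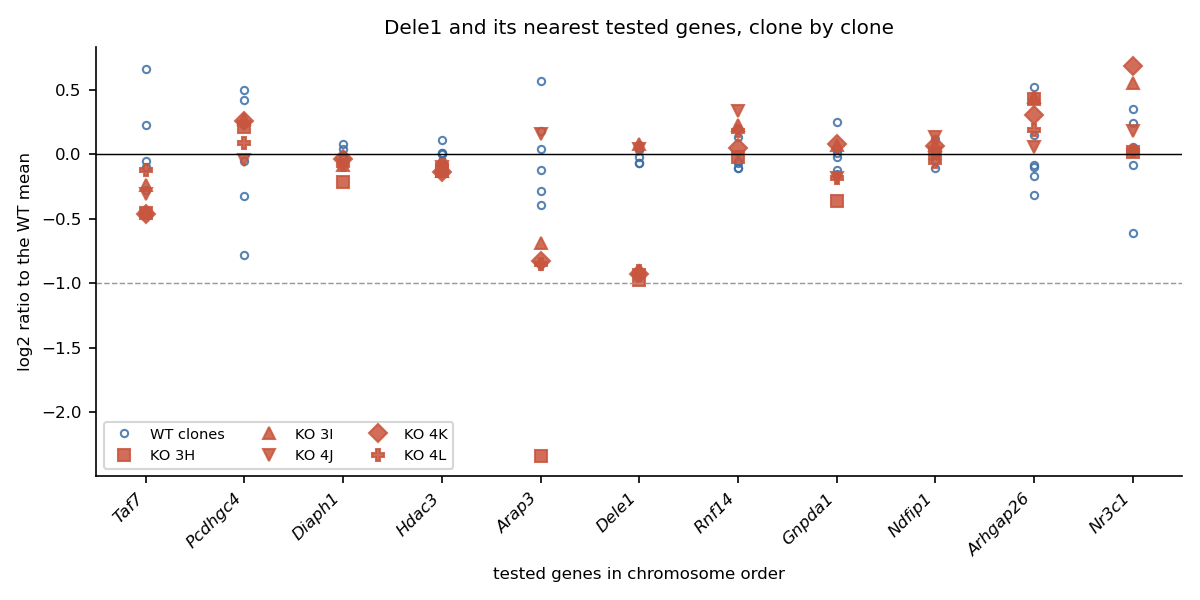
Level of Dele1 and, to each side in chromosome order, the 5 nearest tested genes with a symbol and a mean of at least 5 CPM. Values are log2 ratios to the WT mean, for WT clones (blue circles) and each KO clone (red symbols), with a dashed line at -1. Dele1 sits near the dashed line in 3H, 4K and 4L and near 0 in 3I and 4J, and of the neighbours Arap3 also reaches low values, down to -2.35 in 3H.

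The targets of ATF4 were then read in the same clones. The median of 26 tested ATF4 and CHOP targets, as the log2 ratio to the WT mean, was 0.71 in 3H, 0.60 in 4K and 0.69 in 4L, and 0.93 in 3I and 0.69 in 4J. Values for the clones low in Dele1 and for the others were interleaved, and all 5 were above the WT clones, which ran from -0.26 to 0.43. Of all tested genes, Bdh1 (Pearson r = 0.93 over the 11 clones), a mitochondrial enzyme of ketone body metabolism, and Pi4k2b (r = 0.88), a lipid kinase, were most like Dele1. Bdh1 was at 73.4 to 105.7 CPM in WT clones and at 46.4, 83.3, 89.9, 31.5 and 40.9 CPM in KO 3H, 3I, 4J, 4K and 4L, the same 3 clones being low. Its log2 fold change was -0.59 ± 0.26 (SE, edgeR adjusted p = 0.244).

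Oma1, the protease that cleaves DELE1 and the fusion protein OPA1, showed no such split. It lay at 16.3 to 25.0 CPM in WT clones, with a median of 21.2 CPM, and at 20.2, 19.2, 21.7, 16.7 and 20.5 CPM in KO 3H, 3I, 4J, 4K and 4L. All KO values fell inside the WT range, and the log2 fold change was -0.11 ± 0.11 (SE, edgeR adjusted p = 0.634, 95% interval -0.34 to 0.13). Of 14 substrates and inner-membrane partners of OMA1, edgeR called 0 (1 higher and 1 lower at an unadjusted p under 0.05; DESeq2 called 1 higher and limma-voom 0), and their median was -0.08. Phb2, a prohibitin of the inner membrane and the most abundant, was at 319 ± 55.6 CPM in WT and 283 ± 15.5 CPM in KO clones (SD, n = 6 and 5). Per kilobase of exon, Oma1 stood at 9.87 ± 1.43 and Dele1 at 9.22 ± 0.400 CPM in WT clones (SD, n = 6), a difference within the spread of Oma1. Over the principal transcript alone, which is 2394 bases for Dele1 against 7381 bases of all its exons, Dele1 rose to 28.4 CPM per kilobase and Oma1 to 11.1, so the order of these 2 genes rested on the length used.

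Ppp1r15a, the inducible phosphatase subunit GADD34, had the largest positive fold change of the 10 genes but was not called. It lay at 11.1 to 17.1 CPM in WT clones, with a median of 14.3 CPM, and at 16.1, 22.9, 15.98, 18.7 and 17.0 CPM in KO 3H, 3I, 4J, 4K and 4L. KO clones 3I and 4K were above all WT clones, whereas 3H, 4J and 4L were just below WT 2E. The log2 fold change was 0.36 ± 0.13 (SE, 95% interval 0.08 to 0.64), with an edgeR adjusted p of 0.134. It was called in 1 of 24 alternatives, the random block (limma adjusted p = 0.0279). That block had a within-number correlation of -0.21 and called 1043 of all 11900 genes higher, against 328 in the main edgeR fit. Ppp1r15a had the fewest counts of the 10 genes, 257 to 539 per clone.

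Its window holds TGACGTCA, an element present in 1.79% of promoters, beginning 12 bases before the start and in capitals below. The GAAANNGAAA match begins 220 bases before the start and is left in lower case. It is shown because Ppp1r15a is itself a target of the response it ends. The 250 bases are chr7:45526269-45526518, minus strand.
Ppp1r15a promoter: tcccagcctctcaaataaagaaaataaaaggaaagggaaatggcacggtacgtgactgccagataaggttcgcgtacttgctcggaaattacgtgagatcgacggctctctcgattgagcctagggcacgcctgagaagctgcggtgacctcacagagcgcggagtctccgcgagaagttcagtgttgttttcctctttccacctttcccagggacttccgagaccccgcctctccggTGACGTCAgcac

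Ppp1r15b, the constitutive subunit CReP, was much more abundant. It lay at 209.8 to 254.7 CPM in WT clones, with a median of 226.8 CPM, and at 235.0, 237.9, 237.7, 232.7 and 262.7 CPM in KO 3H, 3I, 4J, 4K and 4L. The log2 fold change was 0.08 ± 0.06 (SE, edgeR adjusted p = 0.493, 95% interval -0.05 to 0.20). Per kilobase, the Ppp1r15b level was 8.72 ± 1.72 times that of Ppp1r15a in WT clones, from 6.45 to 11.5, and 7.12 ± 1.11 times in KO clones, from 5.46 to 8.13 (SD, n = 6 and 5), and these ranges overlapped. Of the 3 catalytic subunits of protein phosphatase 1 and the adaptor Nck1, edgeR called 0 of 4 (0 at an unadjusted p under 0.05; DESeq2 and limma-voom called 0). All 4 had a negative log2 fold change, with a median of -0.09, and Ppp1cb, the most abundant by CPM, was at 579 ± 36.5 CPM in WT and 541 ± 32.7 CPM in KO clones (SD, n = 6 and 5).

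Eif2s1, which encodes the phosphorylated subunit eIF2alpha, lay at 189.0 to 245.4 CPM in WT clones, with a median of 194.3 CPM, and at 206.2, 191.7, 209.5, 196.3 and 210.8 CPM in KO 3H, 3I, 4J, 4K and 4L. All KO clones were inside the WT range, and the log2 fold change was -0.03 ± 0.07 (SE, edgeR adjusted p = 0.879, 95% interval -0.19 to 0.14). Eif2b5, the catalytic subunit of the exchange factor eIF2B, lay at 135.4 to 169.9 CPM in WT clones, with a median of 138.0 CPM, and at 148.7, 143.7, 137.2, 135.0 and 140.2 CPM in KO clones. Its log2 fold change was -0.04 ± 0.06 (SE, edgeR adjusted p = 0.754, 95% interval -0.18 to 0.09). Both genes were highest in WT 2D, the clone with the most late neutrophil markers. Of the WT clones, 2D also had the highest median of ATF4 and CHOP targets, 0.43 as the log2 ratio to the WT mean. Without WT 2D the log2 fold changes were 0.03 for Eif2s1 and 0.0065 for Eif2b5. Per kilobase, Eif2b5 stood at 56.0 ± 5.36, Eif2s1 at 41.7 ± 4.85 and Ppp1r15b at 40.9 ± 3.16 CPM in WT clones (SD, n = 6), the last pair within their SDs. Over the principal transcript alone the order was Eif2s1 at 60.7, Eif2b5 at 56.9 and Ppp1r15b at 40.9 CPM per kilobase.

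Of 10 other subunits and partners of eIF2 and eIF2B, edgeR called 0 (1 higher and 1 lower at an unadjusted p under 0.05), whereas DESeq2 called 1 higher and 1 lower and limma-voom 1 higher. Their median log2 fold change was -0.01. Eif5, the most abundant and the GTPase-activating partner of eIF2, was at 489 ± 51.5 CPM in WT and 582 ± 16.7 CPM in KO clones (SD, n = 6 and 5), with an edgeR adjusted p of 0.0547.

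**Figure D3:**
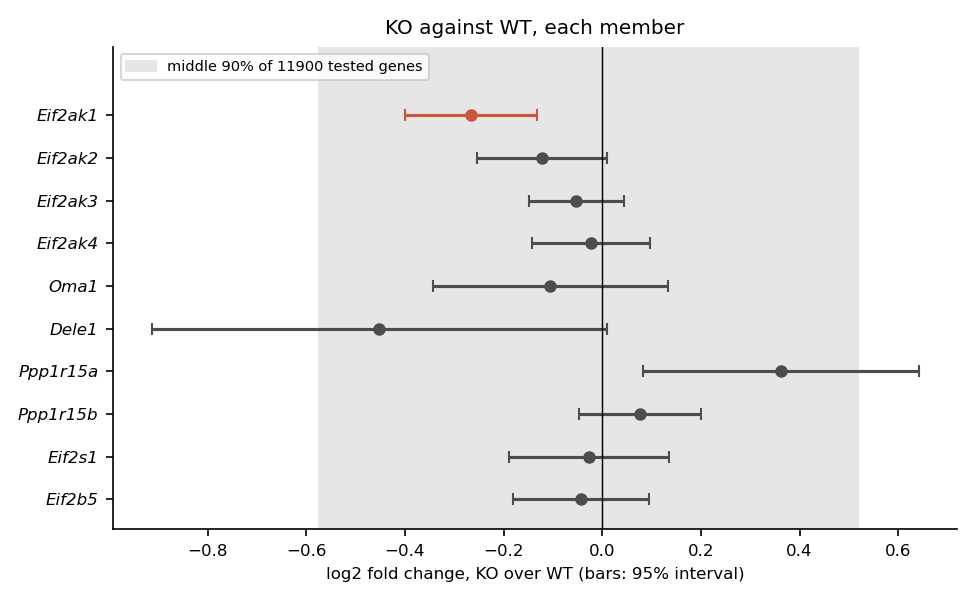
Log2 fold change of each of the 10 genes, KO over WT, from edgeR, with its 95% interval as a bar and the middle 90% of all 11900 tested genes in grey. Eif2ak1 (red) is the gene called, Dele1 has the widest interval, and all 10 values lie inside the grey range.

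Clones of different title numbers were also compared within each genotype. These contrasts set means of clones side by side and do not show the spread among clones of 1 number. For Dele1 the log2 fold change of number 4 over 3 was -0.17. Within number 3, clone 3H was at 34.5 CPM and 3I at 72.0 CPM. Between numbers 1 and 2 in WT and between numbers 3 and 4 in KO clones, 0 of the 10 genes were called by edgeR, against 0% of all 11900 genes in both contrasts. At an unadjusted p under 0.05, edgeR, DESeq2 and limma-voom gave 0 of the 10 genes in either contrast. For all genes, edgeR gave 372 in WT and 161 in KO at that p, DESeq2 called 15 and 6, and limma-voom called 0 in both. Between title numbers, the largest absolute log2 fold change of the 10 genes was 0.08 in WT and 0.18 in KO clones.

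The mRNAs of genes downstream of phosphorylated eIF2alpha were counted next. Of 26 tested targets of ATF4 and CHOP, 17 were called higher in KO clones and 0 lower (0 at an unadjusted p under 0.05 by edgeR; DESeq2 and limma-voom called 0 lower), and the median of the list was 0.71 on the log2 scale. The list was chosen with earlier results of these data known, so its direction is not independent evidence. Psph, an enzyme of serine synthesis, rose by 1.28 ± 0.14 (SE, edgeR adjusted p = 0.00117) and Cebpg, a partner of ATF4, by 0.52 ± 0.06 (SE, edgeR adjusted p = 0.00117) on the log2 scale. Sesn2, an inhibitor of mTORC1 signalling, rose by 1.49 ± 0.18 (SE, edgeR adjusted p = 0.00211), and the seryl-tRNA synthetase gene Sars by 0.66 ± 0.09 (SE, edgeR adjusted p = 0.00257). The count of called targets ranged from 10 to 21 when 1 clone was left out, 21 without WT 2D. It was 3, 16, 5 and 2 without title numbers 1, 2, 3 and 4.

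Among 7 mRNAs with regulatory upstream reading frames, 3 were called higher and 0 lower (0 at an unadjusted p under 0.05 by edgeR; DESeq2 and limma-voom called 5 higher and 0 lower), with a median of 0.59. Ddit3, which encodes CHOP, was at 8.1 to 13.1 CPM in WT clones and at 26.1, 29.1, 23.5, 19.998 and 23.3 CPM in KO 3H, 3I, 4J, 4K and 4L. The genotypes did not overlap, and Ddit3 rose by 1.34 ± 0.14 on the log2 scale (SE, edgeR adjusted p = 0.00117). Ifrd1 rose by 0.97 ± 0.11 and Eprs, a tRNA synthetase gene, by 0.37 ± 0.09 (SE, edgeR adjusted p = 0.00117 and 0.0495). Atf4 itself was at 311 to 595 CPM in WT clones and at 626, 633, 640, 518 and 651 CPM in KO clones. WT 2D was above KO 4K, and Atf4 was not called, at 0.59 ± 0.16 (SE, edgeR adjusted p = 0.0621). The count of mRNAs called higher was 6 without WT 2D and 2 when any other clone was left out. It was 2 with title-number means, and 1, 4, 2 and 2 without title numbers 1, 2, 3 and 4.

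**Figure D4:**
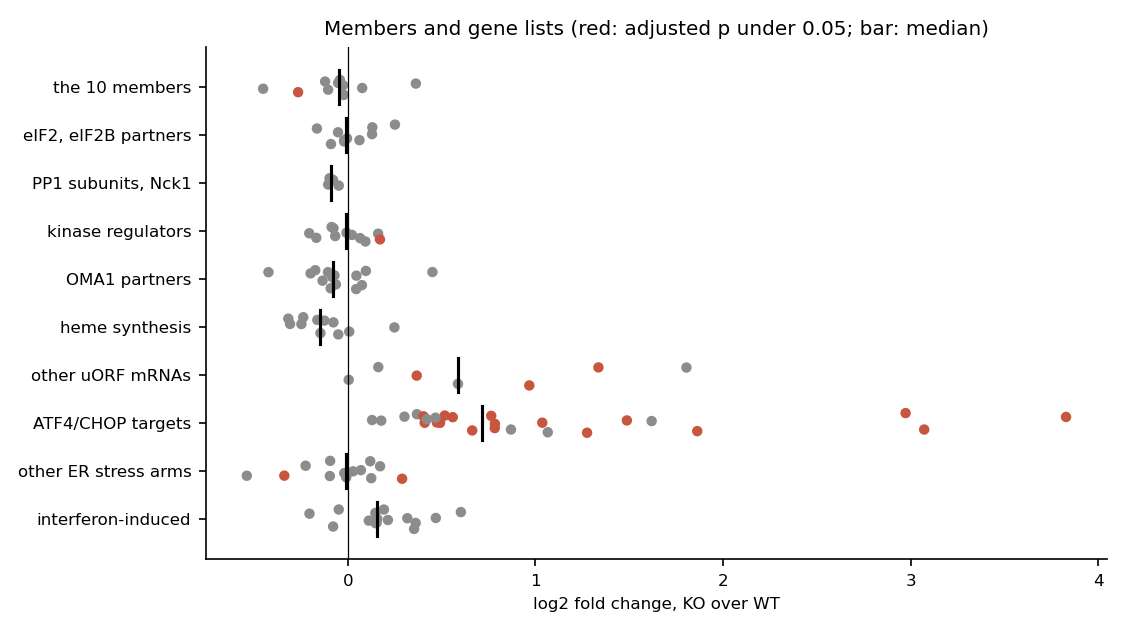
Log2 fold change, KO over WT, of the tested genes of each list, 1 point per gene, red where edgeR's adjusted p was under 0.05, with the list's median as a vertical bar. The 26 targets of ATF4 and CHOP lie above 0 with a median of 0.71, the 7 mRNAs with upstream reading frames have a median of 0.59, and the 10 genes described here and the other lists have medians between -0.15 and 0.15.

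The regulators of the kinases were close to level. Of 11 activators, inhibitors and chaperones, Hspa8, a chaperone of the HSP70 family, was the 1 called higher, at 0.17 ± 0.04 (SE, edgeR adjusted p = 0.0395), and 0 were called lower (2 at an unadjusted p under 0.05 by edgeR; DESeq2 and limma-voom called 0). The call of Hspa8 was lost when any clone but WT 2D was left out, without any title number, with title-number means and without the filter on low counts. The median was -0.01. Since heme holds HRI off, the genes of heme synthesis and breakdown were also examined: of 11 tested, edgeR called 0 (1 lower at an unadjusted p under 0.05; DESeq2 called 1 lower and limma-voom 0), with 9 of 11 negative and a median of -0.15. Alas1, which encodes the first enzyme of heme synthesis and was the most abundant, was at 175 ± 76.0 CPM in WT and 141 ± 67.7 CPM in KO clones (SD, n = 6 and 5), and the erythroid form Alas2 did not pass the filter. In the other arms of the response to stress of the endoplasmic reticulum, which run beside PERK, 1 of 13 genes was called in each direction and the median was -0.01. Ern1, the sensor IRE1alpha, rose by 0.29 ± 0.06 (SE, edgeR adjusted p = 0.0205), and the chaperone gene Hsp90b1 fell by 0.34 on the log2 scale (SE 0.08, edgeR adjusted p = 0.0329). The call of Hsp90b1 was lost when any clone but WT 2D or 2E was left out, with title-number means and without title number 1, 3 or 4. The call of Ern1 was lost without KO 3H, 3I or 4J and without title number 1, 3 or 4.

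Over the 11 clones, the 10 genes did not vary as 1 group. Among their 45 pairs, Pearson's r of log2 CPM was above 0.8 for Eif2ak4 with Oma1 (r = 0.88) and Eif2s1 with Eif2b5 (r = 0.87), and lowest for Eif2ak1 with Ppp1r15a (r = -0.67, and -0.28 after centring within each genotype). Oma1 was most like Fastkd1 (r = 0.98) and Tomm70a (r = 0.97), and Eif2ak4 most like Slc35a4 (r = 0.96) and Clec5a (r = 0.96). Eif2s1 was most like Mybl2 and Heatr3 (both r = 0.98), and Ube2j2 was among the genes most like Eif2b5 (r = 0.96). The partners of Eif2ak2 were Gm6548 (r = 0.92) and Golga1 (r = 0.91), those of Eif2ak3 Hyls1 and Gnb2 (both r = 0.89), those of Ppp1r15a Pdcd1lg2 (r = 0.95) and Rnf115 (r = 0.93), and those of Ppp1r15b Cab39 (r = 0.94) and Wdr3 (r = 0.92). Each partner was picked as one of the 2 most similar of all tested genes with a symbol over 11 clones, so a high coefficient follows from the choice.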

How the data were processed

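The authors deposited 1 table of raw counts for each clone, by Ensembl gene ID, without normalisation or pooling. The submitters' processing notes name STAR, HTSeq, edgeR and build mm9 but no versions. Per the labels' protocols, RNA from 5 M cells was polyA-selected and libraries kept strand, whereas the deposited counts are marked as made without it, so reads from genes on opposite strands cannot be told apart. Totals that HTSeq gives for reads in no gene or several were left out of library sizes and tests. Of gene counts and those totals together, 5.41 to 6.94% fell in no gene and 2.70 to 2.93% were ambiguous. Of 37583 gene IDs, 32860 (87.4%, with 99.6% of counts) were matched to symbols in a mouse annotation of build GRCm38, used only for names, exon lengths, gene order and overlaps. Promoter sequences came from RefSeq in build GRCm38.p6.

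Clones of the 2 genotypes were compared with edgeR 4.0.16 in R 4.3.3, by the robust quasi-likelihood test with TMM, filterByExpr and Benjamini-Hochberg adjustment over all tested genes. Standard errors were worked back from the log2 fold change and its F statistic. Log2 CPM used a prior count of 2. Title numbers were compared in a model of 4 means. DESeq2 1.42.0 and limma 3.58.1 were alternatives, and the tests were checked on simulated data. The 10 genes and all gene lists were chosen with earlier results of these data known. Besides the 10 genes, Taz, Atf4 and Ddit3, the rule names up to 4 called genes of smallest adjusted p per pathway list, or the most abundant where none was called, the 2 genes most like each of the 10, and of each marker list the most abundant gene and those at 0. Aimp2, Arap3 and Alas2 were chosen after their values were seen, as were the length of the principal transcript and the repeat of list counts under the other settings. Some genes that the rule takes are left out of the text.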

Additional observations from a re-analysis of the deposited data

Results flagged for a closer look

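Ppp1r15b in KO clones had 1 clone far from the rest. Clone 4L was at 262.7 CPM, above the other 4 KO clones at 232.7 to 237.9 CPM, and its gap to the nearest clone, divided by the range of the group, was 0.827, above Dixon's 95% critical value for 5 samples. It was the 1 case among 20 groups examined (10 genes in 2 genotypes), and chance gives about 1 in 20. Without KO 4L the log2 fold change of Ppp1r15b was 0.04 (edgeR adjusted p = 0.719).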

How the results depend on the processing

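No gene of the 10 was called higher with edgeR, and 1 was called with the title number as a random block (limma-voom, within-number correlation -0.21). Over all 11900 genes, that block called 1043 higher and 940 lower, against 328 and 273 with edgeR. For calls of lower genes, 1 with edgeR became 2 under that block, which added Dele1 to Eif2ak1, and 0 with title-number means or without all clones of title number 1, 2, 3 or 4. Leaving out 1 clone gave 0 to 1 lower and 0 higher. RLE and upper-quartile normalisation, no filter, a stricter filter, DESeq2, limma-voom and a non-robust fit each gave 1 lower and 0 higher. The title-number contrasts gave 0 calls among the 10 genes in every fit.

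The fold changes that changed sign were all small. On the log2 scale, Eif2ak4 ran from -0.055 to 0.0016 over fits that left out 1 clone, and was 0.015 without title number 1. Eif2s1 ran from -0.053 to 0.028 over such fits, above 0 without WT 1A or 2D. Eif2b5 ran from -0.063 to 0.0065, above 0 without WT 2D, and was 0.016 without title number 4. The other 7 genes kept their direction in all 24 alternatives. The cause of these changes was not tested.

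Over all genes, edgeR's 328 higher and 273 lower calls became 638 and 621 with DESeq2, 175 and 154 without a filter, 1043 and 940 under the random block and 178 and 129 with title-number means. Leaving out 1 clone gave 137 (without KO 3I) to 419 (without WT 2D) higher and 103 to 320 lower, and leaving out a title number 24 to 178 higher and 8 to 118 lower. No paired analysis was possible because the WT and KO clones share no title numbers. Ppp1r15a, with the fewest counts of the 10 genes, and Dele1, with the most uneven KO clones, had the widest intervals.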
